A study of Mus musculus with 6 samples.

Results

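Osteoblast transcription factors are taken here as DNA-binding proteins, with 1 partner subunit, that promote or restrain the path from marrow stromal cells to bone-forming cells. The 9 considered here were taken by gene symbol: Runx2, Runx1, Cbfb, Sp7, Dlx3, Dlx5, Msx1, Msx2 and Twist1. Of these, 8 had a row among the 12830 genes of the deposited table, all 8 were tested, and Msx2 was not analysed here. The RNA came from primary stromal cells of the marrow, which grow attached to the dish, after 2 days under osteogenic induction. The CKO group (3 libraries) came from mice that carry Prx1 together with floxed Rras2 alleles (Prx1;Rras2f/f), and the Rras2FF group (3 libraries) from mice with the floxed alleles only (Rras2f/f). All mice were 8 weeks old, and both groups share the floxed Rras2 gene and the osteogenic treatment. Only the CKO group carries Prx1, so effects of Prx1 itself and of Rras2 loss cannot be told apart here. The Prx1 promoter is active in limb bud mesenchyme, so blood cells in such cultures are outside the lineage it marks. The Rras2 product is a small GTPase, related to the R-Ras protein.

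RUNX2 is the factor without which no osteoblasts form. It binds DNA as a dimer with CBFB, a subunit that does not bind DNA itself and is shared with RUNX1, the family member best known from blood cell formation. SP7, also called osterix, is a zinc-finger protein that acts downstream of RUNX2 in mouse bone. DLX3, DLX5, MSX1 and MSX2 are homeodomain proteins induced by bone morphogenetic proteins (BMPs), and DLX5 is an activator of both Runx2 and Sp7. TWIST1 is a basic helix-loop-helix protein that holds back RUNX2 activity in immature cells.

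Runx2 and Runx1 each have a distal promoter, and RefSeq promoter windows (build GRCm38.p6, from 250 bases before to 50 bases after the transcript start) were found for 6 of the 9 genes. Sp7, Dlx3 and Dlx5 are named only. The RUNX motif, spelled TGTGGT on one strand and ACCACA on the other, was searched on both strands. A homeodomain motif, TAATTG or CAATTA, was searched likewise and was in none of the windows found and in 8.00% of all windows. The short stretches that hold the RUNX motif are shown because RUNX2 and RUNX1 are members that share that motif. They are also shown because Runx2 moved between the groups while its relative Runx1 did not pass the test. Both genes are read from the minus strand, the stretches are written 5′ to 3′ along the gene, and the capitals mark the RUNX motif.
Runx2 at chr17:44814697-44814712: cacaaACCACAtgatt
Runx2 at chr17:44814586-44814609: aaacaACCACAgaACCACAagtgc
Runx1 at chr16:92826028-92826051: aaacaACCACAgaACCACAagttg
The first Runx2 match began 80 bases before the RefSeq start. The paired matches began 24 bases after it in Runx2 and 29 bases after it in Runx1. By GENCODE M21 all of these matches, the first Runx2 match included, lie within an annotated exon. In each pair 2 bases separate the matches, and the Runx2 and Runx1 windows share a run of 22 identical bases there. Of 32851 mouse promoter windows of the same 300-base length, 16.8% held at least 1 such motif. It was in neither the second Runx1 window nor those of Cbfb, Msx1, Msx2 and Twist1. A match describes the letters of the window and does not show that a factor sits there.

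Rras2 itself checks the labels. It had 26.7, 29.0 and 26.8 CPM in the CKO libraries, against 49.7, 50.1 and 44.7 CPM in the Rras2FF libraries. CPM is a gene's count scaled to a common library size after TMM normalization, and the log2 fold change was -0.81 (edgeR, p adjusted after Benjamini and Hochberg = 1.08e-05). The counts summed to between 31934714 and 37561452 per library over the listed genes. Nothing in the labels ties the libraries of a group to different animals. The p-values therefore reflect the spread among these samples, which may be technical.

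Among the osteoblast factors, Runx2 and Dlx3 fell in CKO cells and none rose, while Sp7 and Dlx5 were lower in every CKO library but missed the threshold. The called share was 2 of 8 members, where 2.74% of all genes were called lower, 2.1% higher and 4.84% in either direction (edgeR quasi-likelihood test, adjusted p below 0.05). The log2 fold change was negative for 7 of the 8, with a median of -0.24 against 0.00058 over all genes. The groups did not overlap for 5 members, all lower in CKO, where 11.2% of all genes had every CKO library below every Rras2FF library. Since these are bulk libraries, fewer cells of a type and less RNA per cell cannot be told apart.

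**Figure D1:**
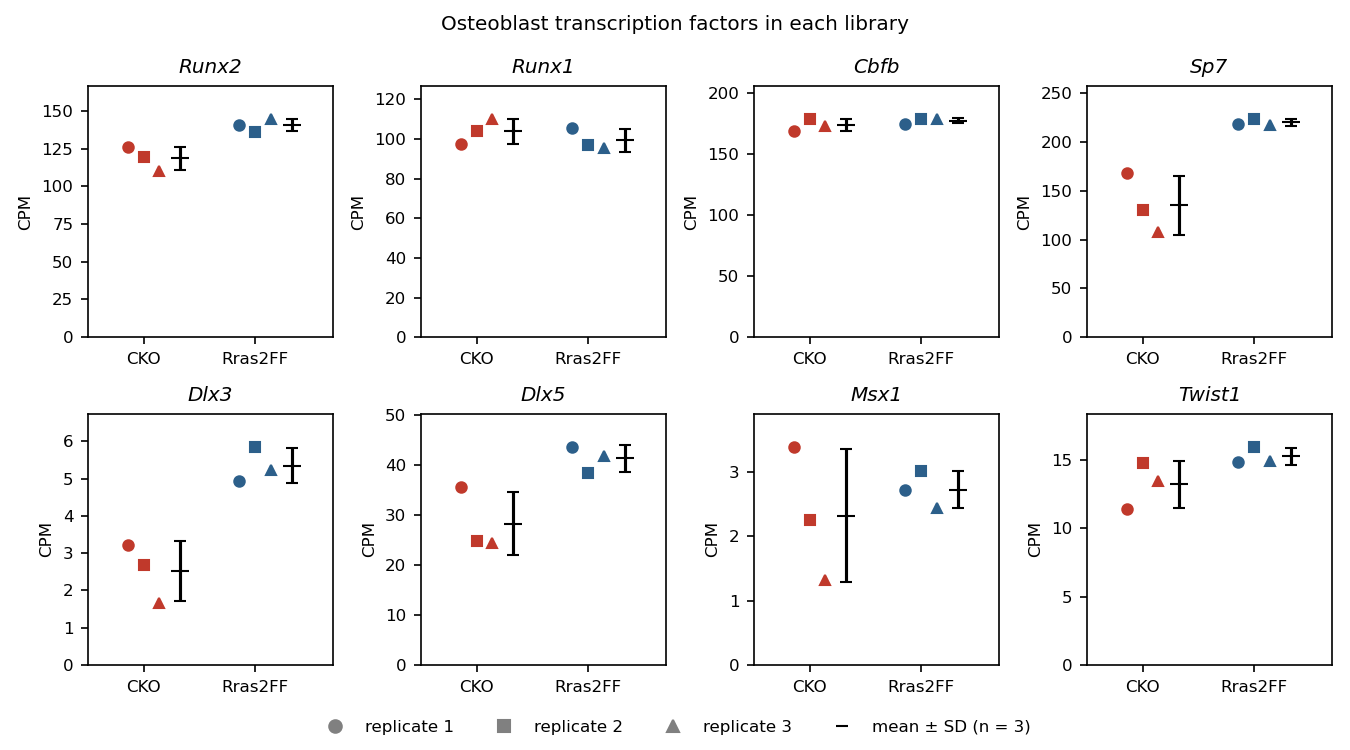
CPM (linear axis from 0) of each factor in the 3 CKO and the 3 Rras2FF libraries; symbols give the replicate number and bars the mean ± SD (n = 3). Runx2, Sp7, Dlx3 and Dlx5 sit lower in all CKO libraries, Cbfb and Runx1 overlap between groups, and Msx1 spreads widest among the CKO libraries, relative to its mean.

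Runx2 (ENSMUSG00000039153, mm10 chr17:44495987-44814797, minus strand) fell by a small amount. It had 125.9, 119.2 and 110.1 CPM in CKO replicates 1, 2 and 3, against 140.8, 136.2 and 144.7 CPM in Rras2FF replicates 1, 2 and 3. Every CKO library lay below every Rras2FF library. Runx2 was 1.19-fold lower in CKO, with a log2 fold change of -0.25 (standard error 0.0522, edgeR adjusted p = 0.0128). That call ended without CKO replicate 2, CKO replicate 3 or Rras2FF replicate 3 (adjusted p = 0.0538, 0.0632 and 0.0740). Counts per gene do not separate transcripts from the distal and the proximal Runx2 promoter. Exons of the antisense gene Runx2os1 overlap those of Runx2 in GENCODE M21, and whether the counting used strand is not given in the sources used here, so reads of such a pair cannot be told apart.

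Runx1 (ENSMUSG00000022952, mm10 chr16:92601466-92826149, minus strand) and Cbfb (ENSMUSG00000031885, mm10 chr8:105170674-105217989, plus strand) did not pass the test. Runx1 had 97.6, 103.8 and 110.1 CPM in CKO, against 105.7, 96.7 and 95.2 CPM in Rras2FF, with a log2 fold change of 0.07 (standard error 0.0564, edgeR adjusted p = 0.612). Cbfb, the shared partner subunit, had 168.5, 178.6 and 172.9 CPM in CKO, against 174.6, 178.2 and 178.2 CPM in Rras2FF, with a log2 fold change of -0.03 (standard error 0.0418, edgeR adjusted p = 0.782). The groups overlapped for both genes. Runx1 is also active in blood cells, and macrophage transcripts were abundant in these cultures. The 9 macrophage markers summed to between 22937 and 23605 CPM in CKO, against 21035 to 22418 CPM in Rras2FF, and their part in the Runx1 level was not tested. Exons of the antisense gene Gm26626 overlap those of Runx1, with the same limit.

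Sp7 (ENSMUSG00000060284, mm10 chr15:102356606-102367182, minus strand) was high in both groups and had scattered CKO values beside close Rras2FF values. It had 167.9, 130.2 and 107.8 CPM in CKO replicates 1, 2 and 3, against 218.5, 224.1 and 218.2 CPM in Rras2FF. The CKO libraries differed among themselves by 1.56-fold from highest to lowest, and the Rras2FF libraries by 1.03-fold. All CKO libraries were below all Rras2FF libraries. Sp7 was 1.63-fold lower in CKO, at a log2 fold change of -0.70 (standard error 0.181), and did not pass (edgeR adjusted p = 0.158, unadjusted p = 0.0157). DESeq2 and limma-voom called it (adjusted p = 0.00482 and 0.0202), as did edgeR without CKO replicate 1, where the log2 fold change was -0.89 (adjusted p = 0.000622).

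The homeobox genes Dlx3 and Dlx5 each had all CKO libraries below all Rras2FF libraries, at very different levels, and Dlx3 passed the test. Dlx3 (ENSMUSG00000001510, mm10 chr11:95120119-95125296, plus strand) is a low transcript here, with 113, 93 and 60 counts in CKO, against 171, 222 and 168 counts in Rras2FF. That is 3.22, 2.68 and 1.65 CPM in CKO, against 4.95, 5.86 and 5.24 CPM in Rras2FF. Dlx3 fell 2.13-fold, the largest change among the 8 members, at a log2 fold change of -1.09 (standard error 0.219, edgeR adjusted p = 0.0100). The call ended without CKO replicate 2 or Rras2FF replicate 2 (adjusted p = 0.0509 and 0.0682). Dlx5 (ENSMUSG00000029755, mm10 chr6:6877805-6882085, minus strand) had 35.5, 24.7 and 24.4 CPM in CKO, against 43.6, 38.3 and 41.8 CPM in Rras2FF. CKO replicate 1 stood nearest the Rras2FF values, and the groups did not overlap. The log2 fold change of Dlx5 was -0.55 (standard error 0.162) and did not pass (edgeR adjusted p = 0.158, unadjusted p = 0.0159). It passed in DESeq2 (adjusted p = 0.000147), in edgeR with a replicate block (adjusted p = 0.00514) and in edgeR without CKO replicate 1 (adjusted p = 8.80e-06), and had an adjusted p of 0.0548 in limma-voom.

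Msx1 (ENSMUSG00000048450, mm10 chr5:37820485-37824583, minus strand), a homeodomain repressor of early mesenchyme, gave no call in either direction. It had 119, 78 and 48 counts in CKO, against 94, 114 and 78 in Rras2FF. CKO replicate 1 was the highest of the 6 libraries at 3.39 CPM and CKO replicate 3 the lowest at 1.32 CPM, with Rras2FF at 2.72, 3.01 and 2.43 CPM. Its log2 fold change was -0.23 (standard error 0.290, edgeR adjusted p = 0.753), and 0.050 without CKO replicate 3. Twist1 (ENSMUSG00000035799, mm10 chr12:33957671-33959829, plus strand) had 11.4, 14.8 and 13.5 CPM in CKO, against 14.8, 16.0 and 14.96 CPM in Rras2FF. Its groups were barely apart on the CPM scale (14.78 CPM in CKO replicate 2 and 14.85 CPM in Rras2FF replicate 1) and overlapped in FPKM, where CKO replicate 2 had 8.26 and Rras2FF replicate 1 had 8.17. The log2 fold change of Twist1 was -0.21 (standard error 0.104, edgeR adjusted p = 0.330).

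Levels of different genes can be compared only per length, as FPKM, the authors' value scaled by transcript length and library depth. In CKO the order was Cbfb at 54.6 ± 1.60 FPKM, Sp7 at 40.5 ± 9.32, Runx2 at 19.7 ± 1.40, Dlx5 at 18.3 ± 4.01, Runx1 at 17.4 ± 1.13, Twist1 at 7.36 ± 0.943, Msx1 at 1.08 ± 0.497 and Dlx3 at 0.874 ± 0.283 FPKM (SD, n = 3). In Rras2FF it was Sp7 at 66.6 ± 1.88 FPKM, Cbfb at 56.4 ± 1.21, Dlx5 at 26.7 ± 1.37, Runx2 at 23.7 ± 0.355, Runx1 at 17.02 ± 0.793, Twist1 at 8.58 ± 0.474, Dlx3 at 1.87 ± 0.195 and Msx1 at 1.28 ± 0.139 FPKM (SD, n = 3). Sp7 was thus the most abundant of the 8 transcripts per length in every Rras2FF library, and stood below Cbfb in every CKO library. In CKO the values of Runx2 overlapped those of Dlx5, Dlx5 those of Runx1, and Msx1 those of Dlx3. In Rras2FF no neighbours in the order overlapped.

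**Figure D2:**
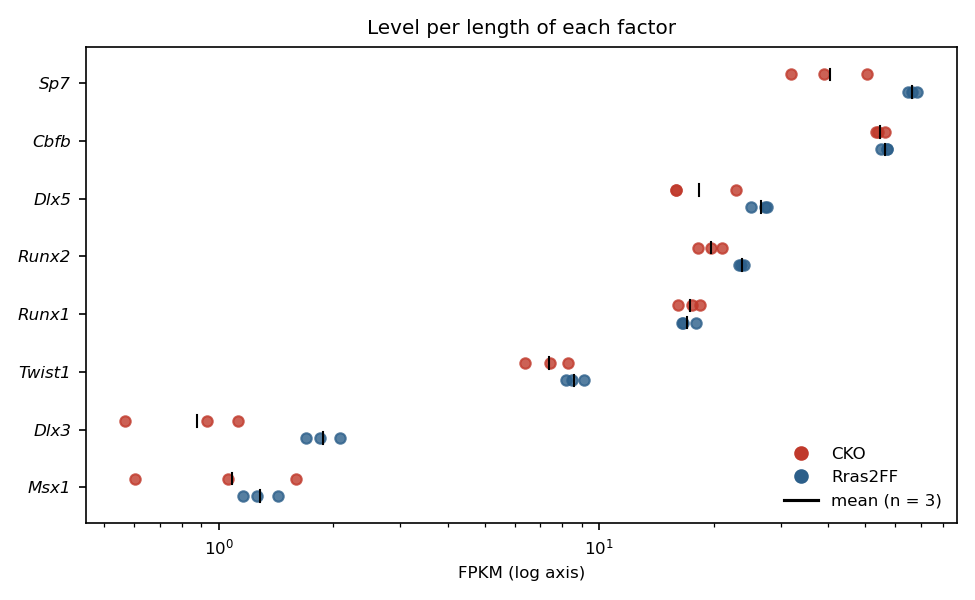
FPKM (log axis) of the 8 factors, 1 point per library with CKO above Rras2FF and a black tick at the mean (n = 3), genes ordered by the Rras2FF mean. Sp7 leads Cbfb in Rras2FF (66.6 and 56.4 FPKM) and lies below it in CKO (40.5 and 54.6 FPKM); Dlx3 and Msx1 are the low transcripts.

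Ratios within a library do not depend on the scaling between libraries, and 3 were compared. The FPKM ratio of Sp7 to Runx2 was 2.40, 1.98 and 1.76 in CKO, against 2.78, 2.91 and 2.76 in Rras2FF, so that Sp7 was lower relative to Runx2 in each CKO library. The mean difference of its log2 ratio, CKO minus Rras2FF, was -0.47. The Runx2 to Runx1 ratio was 1.301, 1.12 and 0.992 in CKO, against 1.302, 1.43 and 1.45 in Rras2FF, with a difference of -0.30 and hardly any gap between CKO replicate 1 and Rras2FF replicate 1. Dlx5 to Dlx3 was 20.4, 17.2 and 28.1 in CKO, against 16.3, 12.1 and 14.8 in Rras2FF, a difference of 0.58 that was 0.39 without CKO replicate 3. For each of the 3 ratios the exact two-sided permutation p was 0.10, also when adjusted over the 3, which is the smallest that 3 against 3 libraries allow. The ratio of Msx2 to Msx1 was not analysed here.

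The CKO libraries did not carry the lower values evenly. For 5 of the 8 factors, namely Runx2, Sp7, Dlx3, Dlx5 and Msx1, CKO replicate 1 was the highest and CKO replicate 3 the lowest of the CKO libraries, an order found in 18.8% of all genes. Relative to the Rras2FF mean, Sp7 stood at -0.39, -0.76 and -1.03 on the log2 scale in CKO replicates 1, 2 and 3. Dlx3 stood at -0.73, -0.99 and -1.69, and Dlx5 at -0.21, -0.73 and -0.75. Rras2 did not share this order, with its highest CKO value in replicate 2. Over the 6 osteoblast markers outside the factor list (Col1a1, Alpl, Ibsp, Bglap, Spp1 and Phospho1) the summed level was 9520, 8917 and 8046 CPM in CKO replicates 1, 2 and 3, against 12800, 12154 and 11770 CPM in Rras2FF. Col1a1 alone, at a mean of 5427 CPM in CKO and 8159 CPM in Rras2FF, made up most of these sums. The 6 markers did not all fall, with log2 fold changes from -1.87 to 0.17. All 6 also belong to the list of RUNX2 and SP7 target genes below, so the 2 sets are not separate observations. The part of those markers' cells in the order among factors was not tested.

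**Figure D3:**
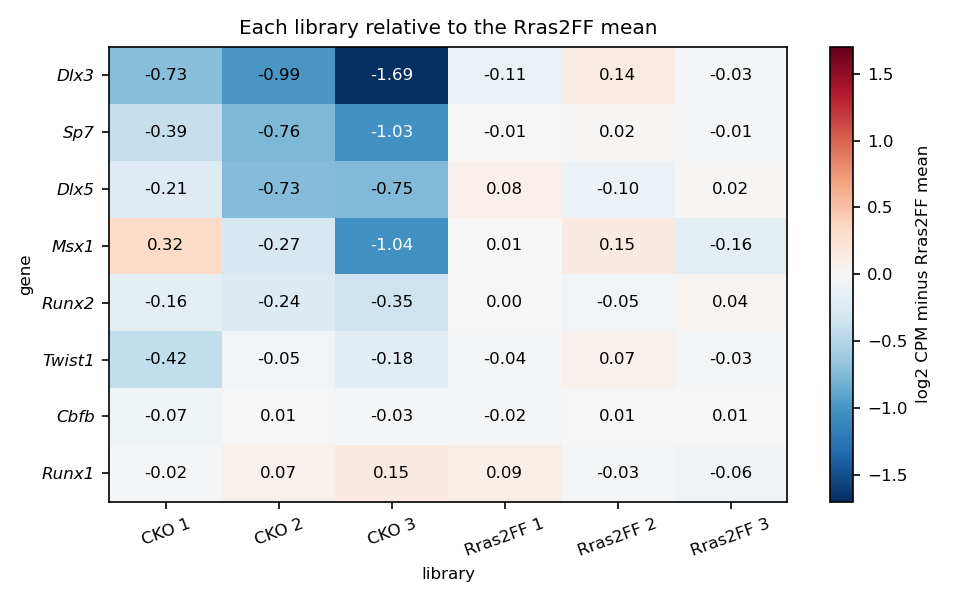
Log2 CPM of each factor in each library minus the mean log2 CPM of the Rras2FF libraries (colour and printed value; blue is lower). Sp7 reads -0.39, -0.76 and -1.03 in the CKO libraries, Dlx3 reaches -1.69 in CKO replicate 3, and Cbfb reads between -0.07 and 0.01 in all 6 libraries.

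Leaving out 1 library at a time changed which members passed. Without CKO replicate 1, 4 of the 8 were called, Runx2, Sp7, Dlx3 and Dlx5, all lower, in a fit that called 4.92% of all genes lower. Without CKO replicate 2, 0 were called by edgeR, against 1.55% of all genes called lower. With all 6 libraries 4 members had an unadjusted edgeR p below 0.05. DESeq2 called 4 members, all lower, where it called 6.61% of all genes, 3.85% lower. By limma-voom 3 members were called, all lower, against 3.38% of all genes and 2.0% lower. With a replicate block edgeR called 3, all lower, against 5.21% of all genes and 3.02% lower. Dlx3 alone was called without CKO replicate 3 or Rras2FF replicate 3 (1.61% and 1.69% of all genes lower), Runx2 alone without Rras2FF replicate 2 (1.25%), and both without Rras2FF replicate 1 (1.64%). The log2 fold changes kept their sign for 7 of the 8 in these fits, Msx1 being the exception. The authors' deposited table gave adjusted p-values of 0.000147 for Dlx5, 0.000165 for Dlx3, 0.00121 for Runx2 and 0.00482 for Sp7. The direction column of the authors' deposited table marks Dlx3 and Sp7 as down and the other 6 factors, Runx2 and Dlx5 included, as not significant.

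**Figure D4:**
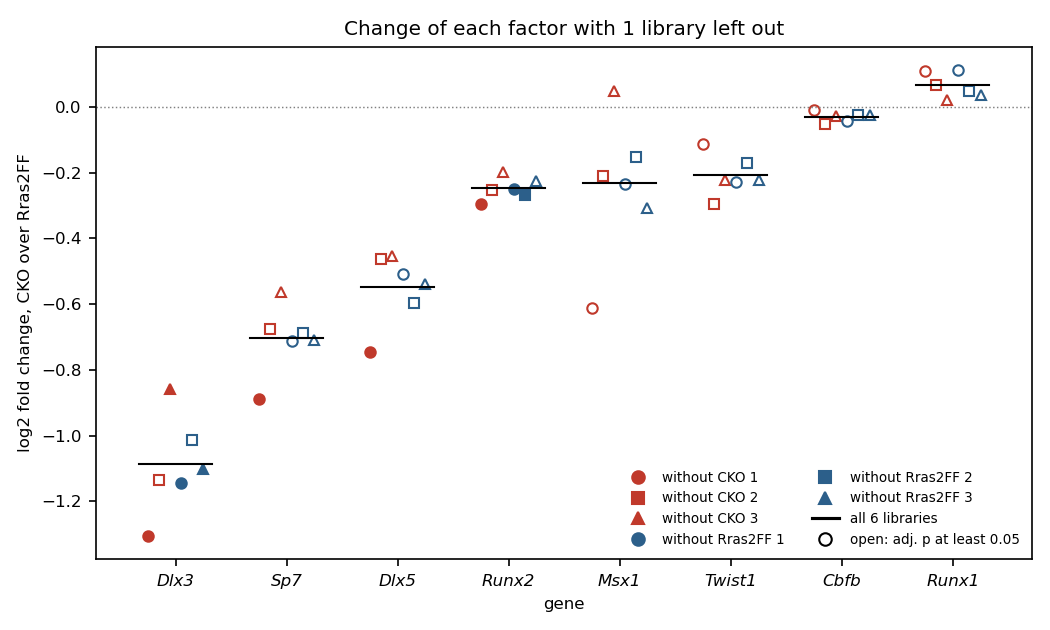
Log2 fold change (CKO over Rras2FF) of each factor with 1 library left out at a time, by edgeR; lines give the value from all 6 libraries, filled symbols an adjusted p below 0.05 and open symbols a higher one. Sp7 and Dlx5 are filled only without CKO replicate 1, and Msx1 crosses 0 without CKO replicate 3.

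Each factor can be set among all transcription factors. The deposited table names a factor family for 1001 genes, of which 28 were called lower and 9 higher in CKO (2.8% and 0.899%, or 3.7% in either direction), and 10.5% had every CKO library below every Rras2FF library. By log2 fold change Dlx3 had the 6th lowest value of the 1001, Sp7 the 18th, Dlx5 the 28th, Runx2 the 94th, Msx1 the 103rd, Twist1 the 115th, Cbfb the 400th and Runx1 the 718th. By p, Dlx3 ranked 13th, Runx2 15th, Sp7 78th and Dlx5 79th. Runx2 was called despite a small fold because its libraries varied little, with a coefficient of variation of 6.70% in CKO and 3.05% in Rras2FF, against 22.4% in CKO and 1.51% in Rras2FF for Sp7.

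The genes nearest to Sp7 in pattern were sought over the 6 libraries, by the root mean square difference of log2 CPM after centring each gene on its own mean. Among 10915 candidates the nearest were Alpl, the tissue alkaline phosphatase (difference 0.0463), Pth1r, the parathyroid hormone receptor (0.0536), Nhsl1 (0.0553) and Smad6, an inhibitory Smad (0.0580). Alpl had 1202, 943 and 821 CPM in CKO, against 1601, 1531 and 1550 CPM in Rras2FF, the same order among CKO libraries as Sp7. Nearest to Runx2 were Colec12 (0.0255), Zfhx2 (0.0291), Irs1, an adaptor of the insulin receptor (0.0298), and Vasn (0.0312). These distances describe likeness over 6 libraries and carry no test.

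The classical RUNX2 and SP7 target genes fell more often than they rose. Of 24 measured genes of a list of 27, 6 fell and 1 rose, where edgeR called 2.74% of all genes lower and 2.1% higher. The median log2 fold change was -0.45 against 0.00058 over all genes. Both type I collagen chain genes, Col1a1 and Col1a2, had log2 fold changes of -0.59 and -0.44 (edgeR adjusted p = 0.000584 and 0.000734). Vegfa, the vascular growth factor, had 110 ± 9.92 CPM in CKO and 160 ± 7.41 CPM in Rras2FF (SD, n = 3; edgeR adjusted p = 0.000323). Fmod, the matrix proteoglycan fibromodulin, fell by 0.97 on the log2 scale (edgeR adjusted p = 0.00269). The riser was Enpp1, which makes the mineralisation inhibitor pyrophosphate, at 0.33 (edgeR adjusted p = 0.0172), and it was chosen for mention after its value was seen. Its call did not survive every fit with a library left out (highest adjusted p = 0.0925). The order of CKO libraries seen for Sp7 was found in 18 of the 24 target genes, against 18.8% of all genes. Alpl, the gene nearest to Sp7 in pattern, is among them. DESeq2 called 16 of the 24, 15 of them lower, where it called 6.61% of all genes. Limma-voom called 12, 11 of them lower, against 3.38% of all genes. The replicate block called 11, 9 of them lower, against 5.21%. Without CKO replicate 1 edgeR called 17, 14 of them lower, in a fit that called 4.92% of all genes lower. It called 5 and 10, all lower, without CKO replicates 2 and 3 (1.55% and 1.61% of all genes lower). Without Rras2FF replicates 1, 2 and 3 it called 6, 7 and 7, of which 6, 6 and 7 were lower. These fits called 1.64%, 1.25% and 1.69% of all genes lower.

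Close relatives of the members had 1 call among 8 measured genes of a list of 11. Sp6, a zinc-finger relative of Sp7 known from tooth development, fell to 2.05 ± 0.530 CPM in CKO, against 6.09 ± 1.18 CPM in Rras2FF (SD, n = 3) and had a log2 fold change of -1.57 (adjusted p = 0.000626 by edgeR). The list had a median log2 fold change of -0.05. Dlx6, the genomic neighbour of Dlx5, and Runx3 had -0.29 and -0.25 and did not pass (edgeR adjusted p = 0.138 and 0.129), both named after their values were seen. The call of Sp6 held with each library left out (adjusted p of at most 0.00973).

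Other transcription factors of the osteoblast lineage numbered 35 measured of 41, with 6 falls and 1 rise and a median log2 fold change of -0.10. Limma-voom called 4 of the 35, and edgeR called 3 or 4 in each fit without 1 library, save 8 without CKO replicate 1. Klf4, a zinc-finger factor, fell by 0.61 (edgeR adjusted p = 0.000193). Prrx2, a homeobox gene of limb mesenchyme, and Snai2, a repressor of the Snail family, had log2 fold changes of -0.41 and -0.24 (edgeR adjusted p = 0.0151 and 0.0230). The call of Klf4 held with each library left out. Prrx2 lost its call in 3 and Snai2 in 4 of the 6 fits that left out a library (highest adjusted p = 0.102 and 0.121). The riser, Foxc1, a forkhead factor of marrow stroma named after its value was seen, had 0.23 and lost its call in 5 of those fits (highest adjusted p = 0.196).

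Protein partners and modifiers of RUNX2 gave 0 calls among all 30 listed genes by edgeR, 1 by DESeq2 and 0 by limma-voom, with 5 at an unadjusted edgeR p below 0.05. The 3 tests called 4.84%, 6.61% and 3.38% of all genes. Without CKO replicate 1 edgeR called 3 of the 30 genes, 2 of them lower, in a fit that called 4.92% of all genes lower. Ddx5, an RNA helicase that binds RUNX2, had a log2 fold change of 0.10, and Wwp1, a ubiquitin ligase, had 0.15 (edgeR adjusted p = 0.284 and 0.0981). Wwp1 passed in DESeq2 and without CKO replicate 1 (adjusted p = 0.0378 and 0.0180). The list's median was -0.07.

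The list of TWIST1 partners and their inhibitors had 3 calls among 7 measured genes of 9, all lower. The E proteins with which TWIST1 pairs, Tcf3, Tcf4 and Tcf12, did not pass, at log2 fold changes of -0.05, 0.00 and -0.01. Of the 4 inhibitors of differentiation, which sequester E proteins, Id1, Id2 and Id3 fell by 0.85, 0.40 and 0.78 (edgeR adjusted p = 0.000917, 0.00468 and 1.14e-06). Id4, the other one, had 104 ± 8.61 CPM in CKO and 109 ± 2.75 CPM in Rras2FF (SD, n = 3) and did not pass, at -0.06 (adjusted p = 0.634 by edgeR). The median of the 7 genes was also -0.06. Id3 had 112 ± 8.25 CPM in CKO and 192 ± 4.01 CPM in Rras2FF (SD, n = 3).

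The BMP route that induces Dlx and Msx genes was mixed by edgeR, with 2 rises and 2 falls among 10 measured genes of 12. Its median log2 fold change was -0.04. Over all genes edgeR called 2.1% higher and 2.74% lower. DESeq2, limma-voom and the replicate block each called 5 genes of this list, 3 of them lower (6.61%, 3.38% and 5.21% of all genes called). Without CKO replicate 1 edgeR also called 5, 3 of them lower (4.92% of all genes lower). The ligand genes Bmp4 and Bmp6 rose by 0.47 and 0.81 on the log2 scale (edgeR adjusted p = 0.000131 and 0.000412). Nog, a secreted BMP antagonist, had -1.47, and Smad7, an inhibitory Smad, had -0.43 (edgeR adjusted p = 0.00163 and 0.00355). Of the transcription factors of the adipocyte and cartilage fates, 1 rose among 7 measured of 9, and the median was 0.02. That was Klf15, an adipogenic factor, at 0.71 (edgeR adjusted p = 0.0286), a call that ended in 5 of the 6 fits with a library left out and in limma-voom (0.0604). Pparg and Sox9, the leading factors of those fates, were named after their values were seen and had 0.02 and -0.17 (edgeR adjusted p = 0.935 and 0.333).

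**Figure D5:**
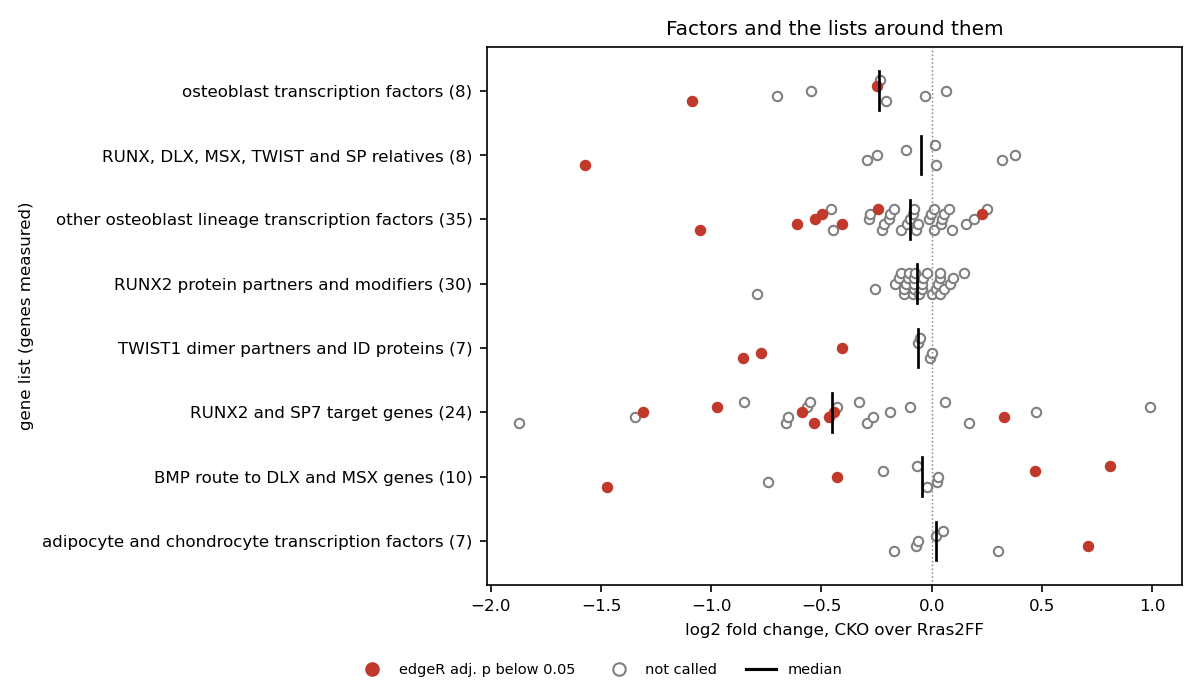
Log2 fold change (CKO over Rras2FF) of every measured gene in the factor list and the 7 lists around it; filled red points passed edgeR at an adjusted p below 0.05, open points did not, and vertical lines are medians. The target genes have the lowest median (-0.45), and the 30 RUNX2 partners hold no filled point.

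Markers of cell types moved with the groups beside the factors. For comparison, edgeR called 2.1% of all genes higher and 2.74% lower. DESeq2 called 6.61% of all genes, 3.85% lower, and limma-voom called 3.38%. Marrow stroma markers summed to between 5205 and 5592 CPM in CKO, against 3899 to 4096 CPM in Rras2FF, with 4 of 5 called higher. Adipocyte markers summed to between 3082 and 3257 CPM in CKO, against 2771 to 2922 CPM in Rras2FF, with 2 of 5 called higher, and lymphocyte markers to between 295 and 357 CPM in CKO, against 181 to 198 CPM in Rras2FF, with 3 of 4 called higher. The osteoblast markers had 2 of 6 called lower by edgeR and 5 called lower by DESeq2, with 5 calls in limma-voom. All 6 had an unadjusted edgeR p below 0.05, but they did not all fall, as log2 fold changes ran from -1.87 to 0.17. For 5 of them every CKO library lay below every Rras2FF library, where 11.2% of all genes had that order. The macrophage markers had 2 of 9 called higher and 1 lower. Chondrocyte markers (3 measured) summed to between 258 and 294 CPM in CKO, against 307 to 379 CPM in Rras2FF. They had 0 edgeR calls, 1 at an unadjusted p below 0.05, 2 calls in DESeq2 and 1 in limma-voom. Neutrophil, megakaryocyte and endothelial markers had 0 edgeR calls among 5, 4 and 4 measured genes, with 1 each at an unadjusted p below 0.05, 1, 1 and 0 calls in DESeq2, and 0 in limma-voom. Their summed levels overlapped between groups. Of 4 muscle markers only Des was measured, at 2.15 to 2.54 CPM in CKO, against 1.496 to 3.41 CPM in Rras2FF. The part of these cell types in the change of Runx2 and Dlx3 was not tested.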

How the data were processed

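The authors deposited counts per gene for 6 libraries, not normalized, beside FPKM values for the same columns, per the file headers. The libraries were stranded mRNA preparations from total RNA, per the labels' protocols, and the submitters' processing notes name mm10. Aligner, counter and strand setting are not stated. The deposited log2 fold changes and the deposited p-values are the authors' own comparison. The deposited mean FPKM column holds a mean of log2(FPKM + 1) and was not used. Counts were tested over all 12830 genes with edgeR 4.0.16 in R 4.3.3 (TMM scaling, filterByExpr, robust quasi-likelihood F test, Benjamini-Hochberg threshold 0.05), without covariates; the filter removed 0 genes. On simulated counts the test recovered most changed genes, with a larger share of false calls than its threshold. The standard error is the log2 fold change divided by the square root of F. Ratios used FPKM and an exact permutation test in scipy 1.17.1. The pattern search needed a mean of at least 5 CPM, an annotated symbol and added 0.5 to the CPM. The lowest mean count of a listed gene was 22.3, and anything rarer was not used here. Coordinates are from GENCODE M21. From each list up to 4 called genes were named by smallest p, or 2 of the largest mean where none was called, and 2 listed symbols were matched by identifier. A few genes that qualify are left unreported. Factors and lists were chosen with earlier results of these data known. Alternatives covered scaling, filters, DESeq2 1.42.0, limma-voom (limma 3.58.1), the replicate number as a block and each library left out.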

Additional observations from a re-analysis of the deposited data

How the results depend on the processing

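Counts of called genes moved most with single libraries. Over all genes 621 were called with 6 libraries, and between 268 (without Rras2FF replicate 2) and 1166 (without CKO replicate 1) with 1 left out, where fewer samples are tested. Of the osteoblast factors 2 were called with 6 libraries and 0 (without CKO replicate 2) to 4 (without CKO replicate 1) with 1 left out. DESeq2 called 4 factors, and a filter at a mean of at least 5 CPM left 1, since Dlx3 and Msx1 were then not tested. The scaling alternatives and no filter called the same 2 factors. Msx1 ran between -0.61 (without CKO replicate 1) and 0.050 (without CKO replicate 3) with 1 library left out, a reversal in the second case, and the cause was not tested. Rras2 stayed between -0.86 and -0.78 with 1 library left out. The 3 ratios kept their sign on deposited counts and with each library left out, where Dlx5 to Dlx3 ran from 0.39 to 0.74 and Runx2 to Runx1 from -0.40 to -0.20; Msx2 to Msx1 was not run. The replicate numbers are not stated to pair libraries, and same-numbered libraries had deviations from their group means that correlated at -0.036, 0.091 and -0.099 over genes. With the replicate number as a block 669 genes and 3 factors were called, Dlx5 being added, and Rras2 had -0.81. Dlx3 and Msx1 rest on at most 222 counts per library, which limits their precision.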

Other observations

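Transcription factors of other roles also differed between the groups, chosen for mention after their values were seen. Of 64 homeobox genes measured, 4 fell (Alx4, Dlx3, Prrx2 and Shox2). Shox2, a homeobox gene of limb skeletal patterning, had 58.5 ± 4.09 CPM in CKO and 74.2 ± 3.95 CPM in Rras2FF (SD, n = 3) and a log2 fold change of -0.34 (adjusted p = 0.00521 by edgeR). Its call held with each library left out. Alx4 had -0.50 and kept its call in 2 of the 6 fits that left out a library.

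Among 49 basic helix-loop-helix genes 5 fell (Atoh8, Hes1, Id1, Id2 and Id3) and 2 rose (Ahr and Bhlhe41). Atoh8 fell by 0.53 on the log2 scale with each CKO library below each Rras2FF library (edgeR adjusted p = 0.00123), and its call held in all 6 fits with a library left out. Hes1, a Notch target, had -0.65 and kept its call in 2 of those fits. Ebf3, a factor of marrow stroma, was at 117 ± 5.59 CPM in CKO and 89.5 ± 3.67 CPM in Rras2FF (SD, n = 3) and a log2 fold change of 0.39 (adjusted p = 0.000490 by edgeR). It passed with each library left out.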
